A study of Mus musculus with 13 samples.

Results

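Definitive erythroid cells, the red cells that carry adult globin, were followed in single-cell 3′ RNA counts of mouse hearts at 3 embryonic stages, E12.5, E14.5 and E16.5 (days after conception), and at P3, a postnatal day. A barcode, which stands for 1 droplet and is taken here as 1 cell, was a member when it held at least 1000 unique molecular identifiers (UMIs, counted RNA molecules), when 7 globin genes (Hba-a1, Hba-a2, Hba-x, Hbb-bs, Hbb-bt, Hbb-bh1 and Hbb-y) held at least 20% of them, and when the adult beta globins Hbb-bs and Hbb-bt together matched or exceeded the embryonic Hbb-y and Hbb-bh1. The rule found 2493 definitive barcodes among 50943 heart barcodes of at least 1000 UMIs, and among 90960 such barcodes in the whole series with its E8.5 and E10.5 embryos. Another 1107 heart barcodes passed the globin limit with more embryonic than adult beta globin and are called primitive. All animals were wild-type C57Bl/6J with no treatment named in the labels, and the hearts were dissociated whole without a sort for any cell type. Each embryonic stage had 2 libraries and P3 had 1 matrix, in which barcodes of 2 records are pooled under suffixes 1 and 2 that the labels do not tie to a record. The E16.5 replicate 1 matrix likewise stands for 2 records. The labels do not say whether libraries of a stage came from separate animals, so p-values measure the spread between libraries, which may be technical.

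In the mouse embryo, primitive erythroid cells arise in the yolk sac, enter the blood with a nucleus and carry embryonic globins. Definitive erythroid cells are made later in the fetal liver and then in bone marrow. They shut down most genes and expel the nucleus before release, and as reticulocytes they clear mitochondria and ribosomes while they finish haemoglobin from the mRNA they kept. Neither kind is made in the heart, and red cells reach a heart preparation in the blood of its chambers and vessels.

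The 7 heart matrices held 67141166 to 158627277 UMIs each and 5843 to 10689 barcodes of at least 1000 UMIs. The 6 embryonic matrices list 737280 barcodes each and the P3 matrix 10964, so P3 had been filtered before deposit. Droplets of at most 100 UMIs, which carry mostly free RNA, had 5.25% to 7.10% globin in the 6 embryonic heart libraries, under the 20% limit. The median globin share of the non-erythroid heart barcodes was 0.0406% to 0.229%. No pair of the 7 matrices shared a definitive barcode, except for 1 sequence shared by E16.5 replicate 2 and P3. No doublet caller was run, and barcodes with a lower globin share are described apart below.

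Definitive barcodes went from near none to most of the erythroid barcodes between E12.5 and E14.5. At E12.5 they numbered 2 and 6 in the 2 libraries beside 327 and 458 primitive barcodes. E14.5 had 311 and 320 beside 158 and 156 primitive barcodes, E16.5 had 792 and 784 beside 5 and 3, and P3 had 278 beside 0. Of all erythroid barcodes, E12.5 had 0.608% and 1.29% definitive ones, E14.5 had 66.3% and 67.2%, E16.5 had 99.4% and 99.6%, and P3 had 100%. The 3 embryo libraries of E8.5 and E10.5 held 0 definitive barcodes beside 52, 187 and 209 primitive ones. As shares of all their barcodes of at least 1000 UMIs, the exact 95% binomial intervals reach up to 0.0604%, 0.0216% and 0.0219%.

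As a share of all heart barcodes of at least 1000 UMIs, definitive cells were 0.0342% (exact 95% binomial interval 0.00415 to 0.124) and 0.0766% (0.0281 to 0.167) at E12.5. In the E14.5 libraries they were 4.84% (4.33 to 5.39) and 5.45% (4.89 to 6.07), and in the E16.5 libraries 11.1% (10.3 to 11.8) and 11.0% (10.3 to 11.8). The P3 matrix held 2.60% (2.31 to 2.92), with 2.33% under barcode suffix 1 and 2.95% under suffix 2. The ranges of the embryonic stages did not overlap over all members, and the E16.5 shares exceeded those at E14.5 by more than the spread between libraries. That order turned when only barcodes with markers of other cells under 1% of their non-globin UMIs were kept, an alternative added for the shares after seeing the data. The shares were then 3.28% and 4.00% in the E14.5 libraries (211 and 235 barcodes), 1.35% and 2.79% in the E16.5 libraries (97 and 199 barcodes) and 0.290% in P3 (31 barcodes), and the cause was not tested. With 2 libraries a stage an exact permutation test cannot pass a threshold of 0.05, and none was run. The intervals cover counting error only, and the share depends on how much blood stayed in each heart and on the filter applied to P3, which were not measured.

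**Figure D1:**
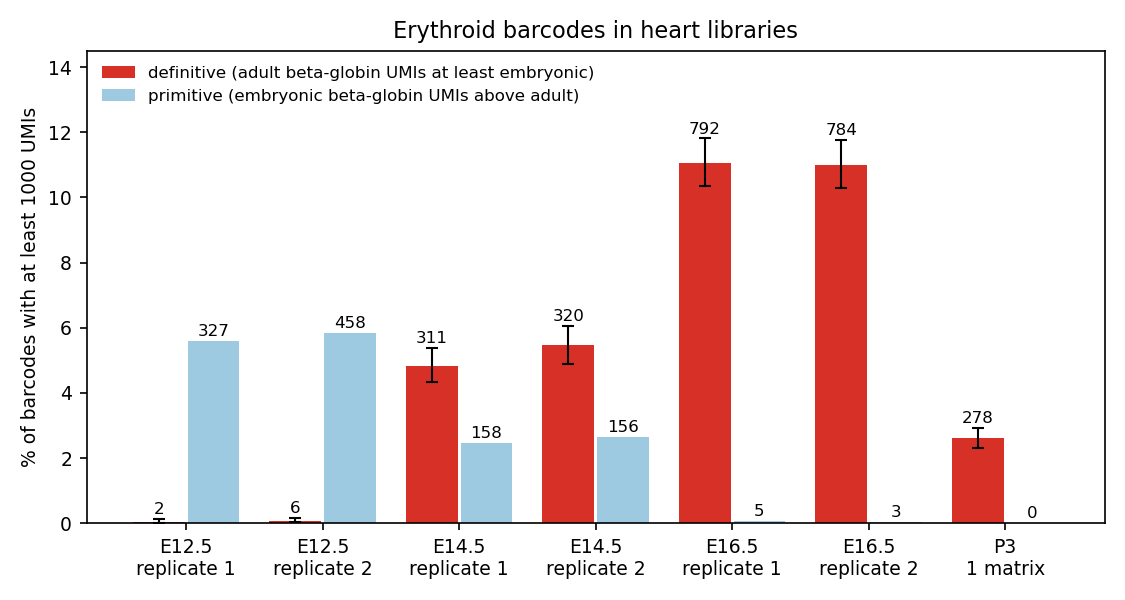
Share of heart barcodes of at least 1000 UMIs (y axis, percent) that were definitive or primitive erythroid, by stage (x axis), with 1 pair of bars for each library, the number of barcodes above each bar and exact 95% binomial intervals on the definitive bars. Definitive shares reach 11.1% and 11.0% at E16.5, while primitive shares go from 5.60% and 5.85% at E12.5 to 0.0698% and 0.0421% (E16.5) and 0 (P3).

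The globins chose the barcodes, so their values are a description. Adult chains made up 99.7% and 98.0% of beta globin UMIs in the definitive barcodes at E12.5 and over 99.8% in each later library, against 16.3% and 16.3% in primitive barcodes at E12.5 and 12.2% and 13.4% at E14.5. Near the line between the kinds, 1 definitive barcode in each E14.5 library, and 0 in the other 5 libraries, held adult beta globin at 1 to 10 times the embryonic. On its other side, primitive barcodes with 1 to 10 times as much embryonic as adult beta globin numbered 303 of 327 and 427 of 458 (E12.5), then 116 of 158 and 122 of 156 (E14.5). Within the adult chains, Hbb-bs took 65.0% and 61.9% (E12.5), 65.7% and 66.4% (E14.5), 72.7% and 73.4% (E16.5) and 79.4% (P3), with Hbb-bt taking the rest. Near the globin limit, 0 to 6 barcodes a library lay just inside, at 20% to 25% globin, and 1 to 9 lay just outside, at 15% to 20%.

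Most definitive barcodes were almost all globin. The median globin share was 95.7% and 96.0% in the E14.5 libraries, 96.0% and 96.4% in the E16.5 libraries and 93.8% in P3. The median total was 20740 and 12661 UMIs, 15432.5 and 10396, and 8964 in the same order, but only 844 and 452.5, 439 and 332.5, and 536.5 UMIs were not globin. The median definitive barcode therefore showed 159 to 290 genes, where other heart barcodes of the same libraries showed 2182 to 3142. The study's own filter removed cells with under 270 genes in order to drop simple cells such as erythrocytes, and by that gene limit alone 46.6% and 69.1% of the definitive barcodes of E14.5 would leave, 63.0% and 75.5% of E16.5 and 125 of 278 of P3.

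A small set of barcodes with less globin carried much of the other RNA. Barcodes at 20% to 80% globin were 28 of 311 and 17 of 320 definitive barcodes of E14.5, 54 of 792 and 69 of 784 of E16.5 and 33 of 278 of P3. They held 58.6% and 51.0%, 57.7% and 64.4%, and 75.5% of the non-globin UMIs. Levels are given in CPM, UMIs per 1000000 non-globin UMIs of the same barcodes. The cardiac actin Actc1 stood at 9615 and 6581 CPM in them at E14.5, near the 8673 and 8657 of other heart barcodes, against 1557 and 1193 in definitive barcodes of at least 80% globin. Alas2, the erythroid enzyme that starts haem synthesis, stood at 971 and 511 against 17116 and 19053. Values summed over all members are therefore weighted toward barcodes that also hold RNA of heart cells, and comparisons below are also given for barcodes of at least 80% globin, a limit chosen after the data were seen. The latter were 1 and 5 barcodes (E12.5), 283 and 303 (E14.5), 738 and 715 (E16.5) and 245 (P3).

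**Figure D2:**
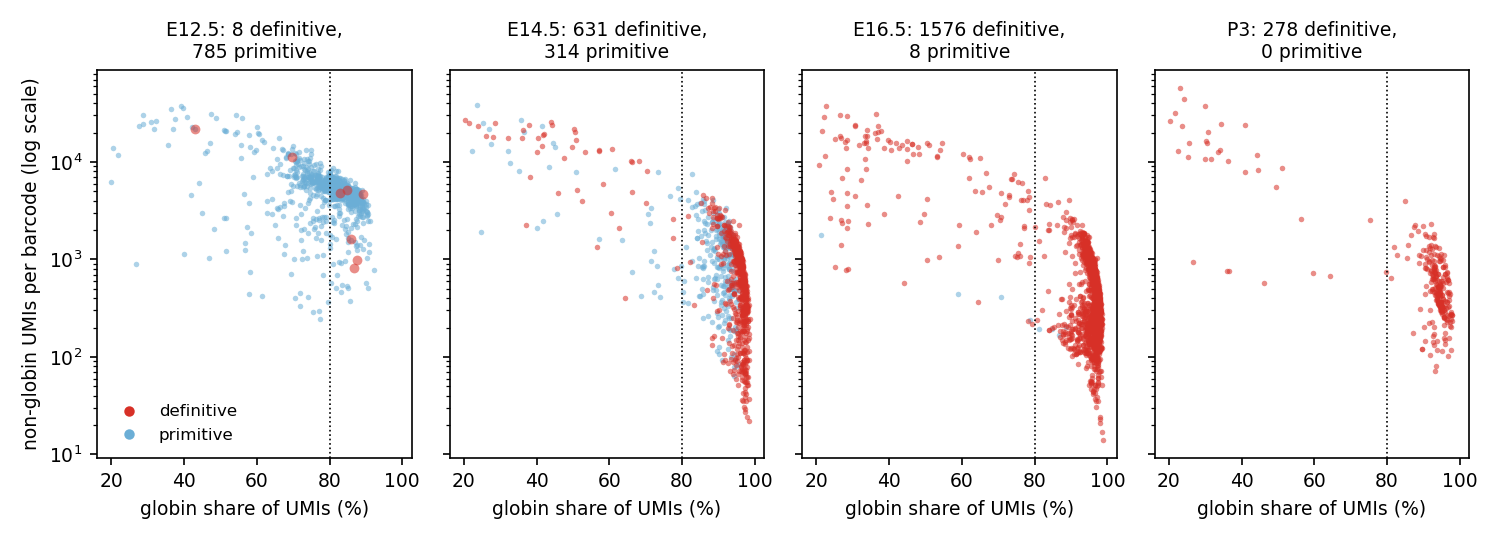
Non-globin UMIs (y axis, log scale) against the globin share of UMIs (x axis, percent) of every definitive (red) and primitive (blue) barcode, in panels by stage, with a dotted line at 80%. From E14.5 on most red points lie right of the line, and those between 20% and 80% number 28 and 17 in the E14.5 libraries, 54 and 69 in the E16.5 libraries and 33 in P3.

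RNA of other heart cells stayed measurable at 80% globin and over. A list of 12 cardiomyocyte genes summed to 0.682% and 0.714% of non-globin UMIs (E12.5), 0.792% and 0.600% (E14.5), 1.92% and 1.43% (E16.5) and 2.28% (P3), where other barcodes ranged from 3.17% to 5.43%. The 8 endothelial genes summed to 0.00528% to 0.00804% in the E14.5 and E16.5 libraries and 0.0275% in P3, the 8 fibroblast genes to 0.0128% to 0.0398% and 0.117%, and the 8 macrophage genes to at most 0.00660% and 0.0210%. The 6 platelet genes reached at most 0.00589% at these stages and the 5 neutrophil genes 0.00387%. At E14.5 the macrophage genes C1qb, Csf1r and Tyrobp, the platelet genes Ppbp, Gp9, Gp1bb and Gp5 and all 5 neutrophil genes had no UMI in either library, and the epicardial list had 1 UMI in each. Mitochondrial genes held a median of 2.44% to 7.23% of the non-globin UMIs of a definitive barcode from E14.5 to P3, against 6.08% to 18.6% in other barcodes. The part of these transcripts in the results below was not tested.

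Genes the rule did not read put these barcodes with erythroid cells, though they do not by themselves tell the definitive from the primitive kind. Over all definitive barcodes, the 10 non-globin genes with the highest ratio to other heart barcodes in their lowest library included Tspo2, Trim10, Alas2, Slc4a1, Hemgn, Fam46c, Car2 and Gm867. Tspo2 encodes a translocator-family protein of erythroid cells, and its lowest ratio was 2494. The ratio of Alas2 was at least 1487 and that of Slc4a1, the band 3 anion exchanger, at least 1183. At 200 non-globin UMIs a barcode, the expected share with an Alas2 UMI was 77.0% to 88.0% of all definitive barcodes at E14.5, E16.5 and P3, against 0.00890% to 0.0381% of barcodes with under 5% globin. It was 33.5% and 36.0% of primitive barcodes at E14.5, so Alas2 marks both erythroid kinds. Of 11 listed genes of blood progenitors, 10 were at 19.6 CPM or lower in each library at 80% globin and over, with Kit at 3.77 in E14.5 replicate 1 and at 0 in the other 6 libraries. The eleventh, Lyl1, was at 584 and 311 in the E12.5 libraries (3 and 4 UMIs), 37.7 and 31.3 (E14.5), 15.9 and 3.22 (E16.5) and 26.2 (P3). The list summed to 0.0584% and 0.0311% of non-globin UMIs at E12.5, all of it Lyl1, against 0.0117% and 0.0111% in other barcodes, and to 0.00193% to 0.00917% in the later 5 libraries. At 5134 non-globin UMIs in E12.5 replicate 1, low levels were not detectable.

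The 10 non-globin genes of highest mean level over the 7 libraries at 80% globin and over included Ftl1, Fth1, Gpx1, Rpl41, Ubb, Alas2, Prdx2, H3f3a and Mkrn1. Levels are counts of molecule ends, so they need no length correction. The ferritin chains Ftl1 and Fth1, which store iron, averaged 61855 and 29569 CPM. Gpx1 and Prdx2, which remove peroxides, averaged 27686 and 14539. Ubb, a ubiquitin gene, averaged 17518.

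Haem synthesis was uneven from step to step. Alas2, the first step, stood at 5843 and 5358 CPM (E12.5), 17116 and 19053 (E14.5), 16220 and 18206 (E16.5) and 26458 (P3). Fech, which inserts the iron in the last step, followed in the same order at 4285 and 2174, 6154 and 7275, 4992 and 6952, and 4866. Steps between them were lower after E12.5. Alad was at 2727 and 2174 in the E12.5 libraries but at 486 and 360, 175 and 148, and 78.6 later, and Cpox went from 1948 and 1553 to 71.6 and 109, then 66.0 and 86.8, then 58.9. Tfrc, the transferrin receptor that brings iron into the cell, was at 195 and 77.6 in the E12.5 libraries, which is 1 UMI in each. In the 4 libraries that followed it was at 9.65 to 18.2, under its level in the other barcodes of each library, and in P3 at 85.1.

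Among membrane genes, Cd24a, a surface glycoprotein, stayed between 6988 and 8093 in all 7 libraries. Slc4a1 was at 2727 and 1786 (E12.5), 490 and 693 (E14.5), 394 and 457 (E16.5) and 603 (P3). Epb41, which ties spectrin to actin, was lower at E12.5, with 390 and 233, than in the later libraries, with 974 to 1428. Its E12.5 values rest on few UMIs, out of 5134 and 12879 non-globin UMIs.

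Klf1 and Gata1, transcription factors of the lineage, were highest in the few E12.5 barcodes. Klf1, an activator of adult beta globin, was at 779 and 1009 (E12.5), 86.7 and 104 (E14.5), 47.8 and 32.2 (E16.5) and 0 (P3). Gata1, the central erythroid factor, was at 390 and 388 and then at 6.43 to 20.8 in each later library. That is fewer than 10 UMIs in every library, those of E12.5 included. Lmo2, a partner of these factors, stayed higher, at 298 and 344 (E14.5), 278 and 402 (E16.5) and 210 (P3).

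Of the genes for clearing organelles and proteins, Bnip3l, the receptor that marks mitochondria for removal in reticulocytes, was at 4597 and 5232 (E14.5), 5106 and 6010 (E16.5) and 5822 (P3). Ube2l6, a conjugating enzyme for ubiquitin-like tags, was at 6705 and 6853, 7573 and 9260, and 9286. Of the mitotic genes, Ube2c, which serves the anaphase-promoting complex, was at 3684 and 3742, 3215 and 3045, and 1703, while Cenpf and Mki67 were at 0 to 38.6 and at 31.3 to 91.0. In other barcodes Ube2c was at 293 and 308, 215 and 201, and 59.6, so it lay above them in all 5 of these libraries. Mki67 was at 64.5 and 69.4, 63.8 and 68.4, and 27.1 there, so it lay below them in 3 of the 5.

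**Figure D3:**
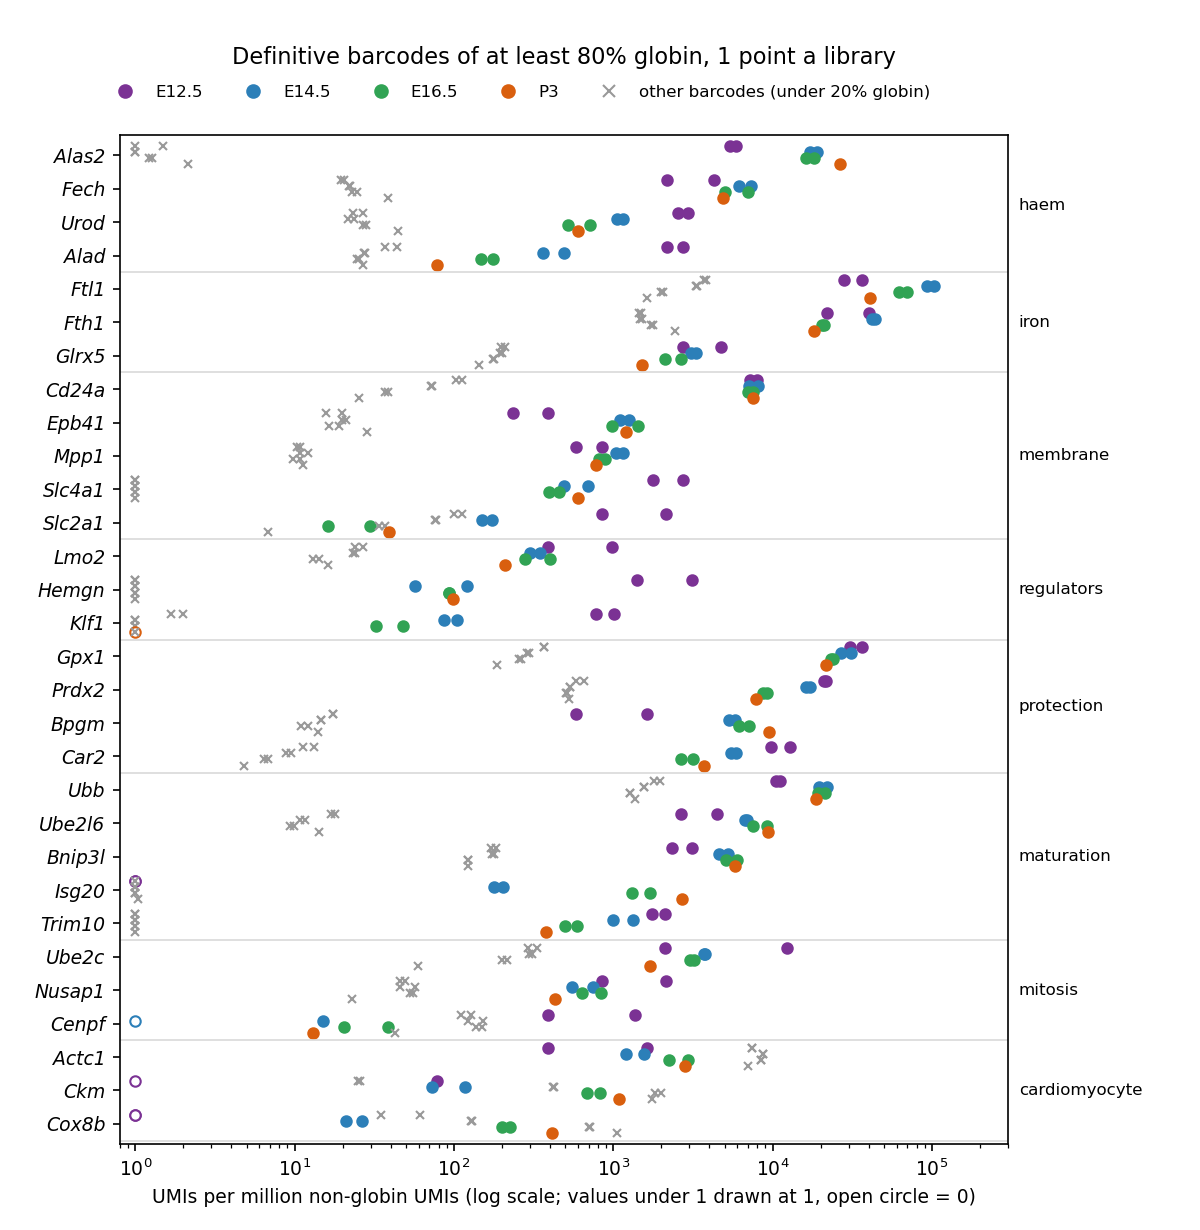
Levels of named genes (rows, grouped by role) in definitive barcodes of at least 80% globin, in CPM (x axis, log scale), with 1 coloured point for each library and a grey cross for the other heart barcodes of the same library. Alas2, Slc4a1 and Bnip3l lie far to the right of their crosses at every stage, while the cardiomyocyte genes Actc1 and Cox8b lie to the left of theirs in all 7 libraries and Ckm in all but E12.5 replicate 2.

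The E14.5 hearts held both kinds of erythroid cell in numbers, 311 and 320 definitive barcodes beside 158 and 156 primitive ones, so the 2 kinds could be compared within each library. Over all members, edgeR's quasi-likelihood test with the library as a block called 281 of 2946 genes at a Benjamini-Hochberg adjusted p below 0.05 (9.54%), 118 higher in definitive barcodes (4.01%) and 163 higher in primitive barcodes (5.53%). At 80% globin and over it called 807 of 1135 (71.1%), 401 higher in definitive (35.3%) and 406 higher in primitive (35.8%), and 268 of the 281 were among them with the same direction. The block leaves 1 residual degree of freedom, so the spread of each gene leans on the value pooled over genes. The size of a p-value depends on that pooled value. For Hmox1 the adjusted p was 5.95e-77 at 80% globin and over and 0.00143 over all members (edgeR). Where most genes tested differ, a call says little about a single list, and its median log2 difference is given beside the median of all genes. That median was 0.04 with trimmed-mean scaling, -0.03 with median-of-ratios scaling and 0.32 with non-globin totals only. Under all 3 scalings, 355 of the 1135 genes were higher in definitive and 352 higher in primitive barcodes.

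Haem synthesis genes were higher in definitive barcodes. Alas2 was at 17116 and 19053 CPM against 2996 and 3014, and Fech at 6154 and 7275 against 505 and 518. Urod, which acts between them, was at 1143 and 1053 against 92.3 and 107. The log2 difference was 2.31 ± 0.18 (SE, adjusted p = 4.95e-34) for Alas2, 3.43 ± 0.22 (adjusted p = 5.76e-48) for Fech and 3.18 ± 0.30 (adjusted p = 3.33e-24) for Urod, by the same edgeR test. All 11 tested genes of the list were higher, under each of the 3 scalings tried, with a median of 2.30, and 7 of 11 over all members (median 1.83).

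Of the 12 membrane genes tested, 9 were higher in definitive barcodes under all 3 scalings (median 1.90), among them Slc4a1, Sptb, Epb41, Rhd, Cd47, Mpp1, Slc2a1 and Cd24a, and with all members 7 of 16 were (median 1.37). Mpp1, the p55 protein that binds glycophorin C to the skeleton, was at 1033 and 1147 against 5.43 and 5.96, a log2 difference of 7.17 ± 0.48 (adjusted p = 7.44e-44, edgeR). Cd47, which protects red cells from phagocytosis, was at 185 and 292 against 0 and 5.96 (5.84 ± 0.64, adjusted p = 1.66e-18). Neither kind overlapped the other for these genes.

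The promoters of Alas2 and Mpp1, genes of both groups, are shown as they stand in RefSeq on GRCm38.p6, the build named mm10, from 250 bases before the start of transcription to 50 after it. Capitals mark matches to a GATA factor motif (AGATAA as well as AGATAG, and further TGATAA besides TGATAG, on either strand) or to the CACCC-box motif CCNCNCCC on either strand, the kind that KLF1 binds.
Alas2, chrX:150547167-150547466, plus strand: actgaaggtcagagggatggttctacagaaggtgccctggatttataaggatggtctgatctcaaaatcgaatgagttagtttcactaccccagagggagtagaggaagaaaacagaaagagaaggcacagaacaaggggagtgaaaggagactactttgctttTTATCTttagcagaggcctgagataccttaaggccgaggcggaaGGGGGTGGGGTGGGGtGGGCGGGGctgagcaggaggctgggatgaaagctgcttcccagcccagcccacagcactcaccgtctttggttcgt
Mpp1, chrX:75130967-75131266, minus strand: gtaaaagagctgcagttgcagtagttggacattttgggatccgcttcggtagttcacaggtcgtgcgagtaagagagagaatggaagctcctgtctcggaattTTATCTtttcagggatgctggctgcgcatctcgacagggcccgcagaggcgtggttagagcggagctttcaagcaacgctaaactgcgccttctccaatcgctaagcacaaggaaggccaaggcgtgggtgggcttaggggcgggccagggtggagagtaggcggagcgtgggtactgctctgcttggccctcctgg
The Alas2 window held 1 GATA match and 4 CACCC matches, of which 3 overlap, and the Mpp1 window held 1 GATA match and no CACCC match. Over all 32851 promoter windows of this length in the table, 29.76% held a GATA match and 49.47% a CACCC match. Counted by gene, with a match in any of its windows, the shares over all 27025 genes were 33.04% and 51.87%. Of the listed genes with an entry, a GATA match stood in 3 of 12 for haem synthesis, 11 of 19 for the membrane list, 10 of 17 for the regulators and 4 of 18 for terminal maturation. A CACCC match stood in 11 of 12, 13 of 19, 15 of 17 and 15 of 18 in the same order, and the lists were not tested against all genes. A match is a description of these letters, and no match says only that they are not in this window.

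The regulators differed in direction. Lmo2 was at 298 and 344 in definitive against 10.9 and 0 in primitive barcodes, and Klf1 at 86.7 and 104 against 27.1 and 0. Tal1, which forms a complex with Lmo2, went the other way, at 11.3 and 20.8 against 342 and 506, a log2 difference of -4.97 ± 0.39 (adjusted p = 8.57e-34, edgeR). Of 7 regulators tested, Klf1, Lmo2, Foxo3 and Hemgn were higher and Tal1 lower in definitive barcodes under all 3 scalings (median 1.88), and Lyl1, a relative of Tal1 and the 1 progenitor gene tested, was lower too. With all members, Lmo2 was higher and Tal1 lower of 9 regulators (median 0.28), Klf1 and Foxo3 had adjusted p of 0.230 and 0.106 (edgeR), and Hemgn did not pass the filter on low counts.

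Terminal maturation genes were mostly higher in definitive barcodes, 13 of 19 under all 3 scalings with Pim1 and Btg2 lower (median 2.34), and with all members 11 of 20 were higher and the same pair lower (median 1.77). Trim10, needed for erythroid differentiation, was at 996 and 1324 against 81.4 and 89.4, a log2 difference of 3.46 ± 0.31 (adjusted p = 5.88e-27, edgeR). Ubb, among the most abundant transcripts of both kinds, was at 19458 and 21987 against 17882 and 17479 (-0.05 ± 0.16, adjusted p = 0.775). Ube2c was at 3684 and 3742 against 86.8 and 65.5, and Nusap1, a spindle protein, at 547 and 740 against 5.43 and 0. Only 4 of 20 mitotic genes and 1 of 20 replication genes had enough UMIs to be tested at 80% globin and over, so their counts are not given. Over all members 2 of 14 mitotic genes were higher (median -0.13), Ube2c and Nusap1. Of the 6 replication genes 0 passed by edgeR and 0 had an unadjusted p below 0.05.

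Protection from oxidation and iron storage split by gene. Gpx1 was at 26947 and 31086 in definitive against 3126 and 2502 in primitive barcodes (log2 difference 3.09 ± 0.18, adjusted p = 4.33e-58, edgeR). Hmox1, which breaks haem down, was at 3.77 and 0 against 1737 and 2258 (-9.70 ± 0.47, adjusted p = 5.95e-77). Gpx4 and Sod1 were also lower in definitive barcodes, while Eif2ak1, Prdx2, Cat, Bpgm, Car2 and Hagh were higher with Gpx1, which makes 7 higher and 3 lower of 12 (median 0.72). With all members, Gpx1, Bpgm and Car2 were higher and the same 3 lower (median 0.49), while Eif2ak1, Prdx2, Cat and Hagh had adjusted p of 0.0548 to 0.285 (edgeR). Fth1 was at 41887 and 43677 against 96886 and 93990 (-1.44 ± 0.14, adjusted p = 1.23e-22). Of the 6 iron genes tested (median 0.07, and -0.0047 with median-of-ratios scaling), Glrx5 was higher and Fth1 and Pcbp1 lower under all 3 scalings, and with all members Glrx5 was higher and Fth1 lower of 7 (median -0.15).

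Genes for the cytosolic ribosome were lower in definitive barcodes, 58 of 81 under all 3 scalings (median -1.16), and 10 of 10 mitochondrial genes were higher (median 1.41). Over all members 30 of 83 ribosomal genes were lower. For mitochondrial genes the call did not hold there, since 0 of 12 passed by edgeR (median 0.13), with 1 at an unadjusted p below 0.05. Of 10 cardiomyocyte genes 9 were higher in definitive barcodes, of which 2 held under all 3 scalings (median 0.64), as did the smooth muscle gene Acta2. Over all members the 12 cardiomyocyte genes had a median of -0.40. No endothelial, epicardial, macrophage, platelet or neutrophil gene had enough UMIs to be tested here, and of 6 fibroblast genes tested over all members, Col1a1, Col1a2, Postn and Dcn were higher.

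The nuclear long non-coding RNA Malat1 separated the kinds in the other direction. It stood at 1923 and 3643 in definitive against 57243 and 57894 in primitive barcodes, a log2 difference of -4.72 ± 0.18 (adjusted p = 3.68e-120, edgeR). At 200 non-globin UMIs a barcode it was expected in 18.1% and 15.4% of definitive and 92.8% and 91.7% of primitive barcodes, and it was seen in 49.2% and 35.0% and in 96.2% and 97.6% of the same barcodes at their full depth. The fixed depth left out 37 and 86 definitive and 9 and 11 primitive barcodes with fewer UMIs. At the same depth Ube2c was expected in 38.6% and 41.3% of definitive and 0.945% and 1.16% of primitive barcodes, and Hmox1 in 0.148% and 0% against 21.5% and 23.2%.

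Some genes had UMIs in 1 kind only, at low levels. Over all members, Cd82, a tetraspanin, was at 102 and 112 against 0 and 0 and so at least 23.7-fold higher in definitive barcodes, taking 3 counts over the primitive group as the floor. The exonuclease gene Isg20 was at 87.5 and 89.4 against 0 and 0 (at least 19.8-fold) and AI662270 at 74.997 and 74.1 against 0 and 0 (at least 16.7-fold). Fbxo2, an F-box gene, was at 0 and 0 against 106 and 53.9 and so at least 27.6-fold higher in primitive barcodes. Pdzk1ip1, a small membrane protein gene, was at 18.7 and 20.4 against 1659 and 1518. The named rule also gave Mpp1, Lmo2, Ctsf, Dcn and Pepd among the largest differences toward definitive and Hmox1, Fam174b, Gm16062, Tnfrsf23, Dnase2a, Frat2, Lmx1a and Tal1 toward primitive barcodes.

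**Figure D4:**
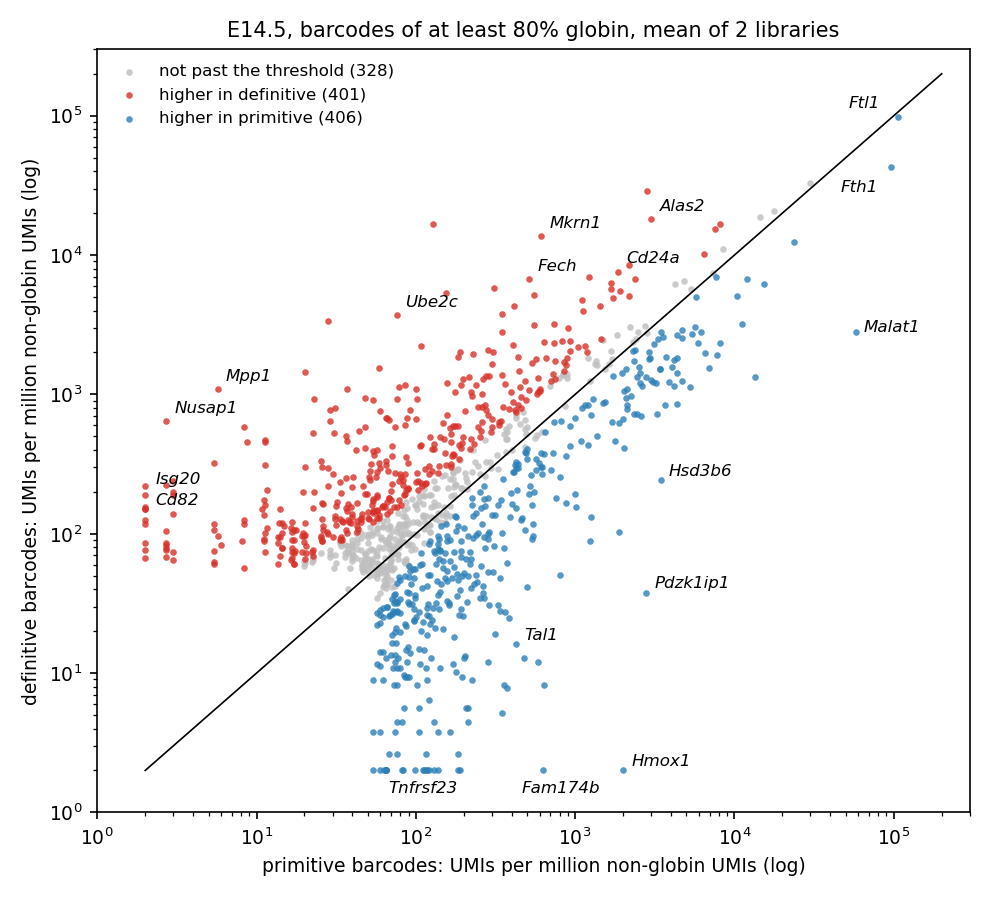
Level of each of the 1135 tested genes in definitive (y axis) against primitive (x axis) barcodes of at least 80% globin at E14.5, in CPM on log scales and as the mean of 2 libraries, with 401 genes called higher in definitive, 406 higher in primitive and the rest in grey. Levels under 2 CPM are drawn at 2, and Mpp1, Ube2c and Nusap1 lie far above the diagonal and Malat1, Hmox1 and Pdzk1ip1 far below it.

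The contrast is given for E14.5 only, since it asked for at least 10 barcodes of each kind in a library. Primitive barcodes at E12.5 had other levels than those at E14.5 in some of these genes. Over all primitive barcodes Hmox1 was at 22.5 and 10.9 at E12.5 and 1045 and 1276 at E14.5, and Malat1 at 14365 and 18388 and then 39734 and 37723. At the fixed depth used above, Slc4a1 was expected in 11.4% and 13.3% of primitive barcodes at E12.5 and in 2.39% and 4.14% at E14.5. Its share of all definitive barcodes at E14.5 lay between, at 5.96% and 8.34%. Car2 did the same, with 67.4% and 61.6%, 20.4% and 19.5%, and 29.2% and 32.4%. For Alas2, Bnip3l, Ube2l6 and Isg20, primitive barcodes at E12.5 stayed below definitive ones at E14.5. These changes over time were not tested, so the contrast describes E14.5 only.

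Between E14.5 and E16.5 the definitive barcodes differed in few genes over all members and in more at 80% globin and over. Over all members, with the E12.5 libraries in the same fit, edgeR's quasi-likelihood test called 11 of 4711 genes (0.233%), 8 higher at E16.5 (0.170%) and 3 lower (0.0637%). At 80% globin and over it called 167 of 1535 (10.9%), 90 higher (5.86%) and 77 lower (5.02%). With median-of-ratios scaling that split was 107 higher and 50 lower, and with non-globin totals only 102 and 69. Of all 1535 genes tested, 88 were higher and 50 lower under all 3 scalings. Leaving the E12.5 libraries, with their 2 and 6 barcodes, out of the fit gave 120 calls over all members and 191 at 80% globin and over.

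Isg20, an exonuclease gene named for its induction by interferon, rose and stood far above other heart barcodes. In barcodes of at least 80% globin it was at 204 and 177 CPM (E14.5), 1306 and 1695 (E16.5) and 2705 (P3), and in other barcodes of these libraries at 0.342 to 1.04. The log2 change from E14.5 to E16.5 was 2.91 ± 0.31 (adjusted p = 4.05e-17, edgeR), and 2.94 ± 0.34 (adjusted p = 0.00224) over all members. The expected share of barcodes with an Isg20 UMI at 200 non-globin UMIs was 3.84% and 2.57% (E14.5), 19.5% and 25.5% (E16.5) and 34.9% (P3), and at full depth 13.8% and 8.29%, 40.6% and 45.8%, and 63.4%. The fixed depth left out 113 and 237 barcodes at E16.5 and 21 at P3. AI662270, a gene without an established role, rose from 162 and 141 to 708 and 711 (2.16 ± 0.31, adjusted p = 1.34e-09) and was at 675 at P3.

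The gene for the glucose transporter GLUT1, Slc2a1, fell. It was at 2143 and 854 CPM (E12.5), 151 and 172 (E14.5), 29.6 and 16.1 (E16.5) and 39.3 (P3). The log2 change from E14.5 to E16.5 was -2.80 ± 0.46 (adjusted p = 2.35e-07, edgeR), and -2.27 ± 0.38 (adjusted p = 0.0208) over all members. In other heart barcodes it went from 77.1 and 76.3 to 33.9 and 36.9, so it was above them at E14.5 and below them at E16.5.

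The promoter windows of the gene that rose and the gene that fell are shown with the same motifs in capitals. Isg20 has 3 starts in the table, of which the one with both motifs is printed.
Isg20, chr7:78913985-78914284, plus strand: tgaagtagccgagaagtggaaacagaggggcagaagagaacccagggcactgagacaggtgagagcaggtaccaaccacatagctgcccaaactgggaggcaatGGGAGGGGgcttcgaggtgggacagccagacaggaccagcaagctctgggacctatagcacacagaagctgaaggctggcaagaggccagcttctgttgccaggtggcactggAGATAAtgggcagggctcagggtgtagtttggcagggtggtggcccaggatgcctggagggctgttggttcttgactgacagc
Slc2a1, chr4:119108495-119108794, plus strand: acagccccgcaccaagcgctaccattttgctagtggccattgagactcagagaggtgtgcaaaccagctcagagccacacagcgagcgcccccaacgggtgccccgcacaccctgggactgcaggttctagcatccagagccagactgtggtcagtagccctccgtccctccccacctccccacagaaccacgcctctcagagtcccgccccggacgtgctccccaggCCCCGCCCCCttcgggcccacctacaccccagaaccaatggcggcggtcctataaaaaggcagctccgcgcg
The Isg20 window held 1 CACCC match and 1 GATA match. Of its other starts, the window at chr7:78913174-78913473 held neither motif and that at chr7:78913515-78913814 held 1 CACCC match. The Slc2a1 window held 2 overlapping CACCC matches and no GATA match.

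Haem enzymes fell in part. Alad, which acts after Alas2, had levels of 486 and 360 (E14.5), then 175 and 148 (E16.5), a fall (log2 change -1.45 ± 0.30, adjusted p = 9.81e-05, edgeR), and Ppox, the step before Fech, was at 102 and 99.0 and then 25.03 and 22.5 (-2.11 ± 0.47, adjusted p = 0.000423). Alas2 itself was at 17116 and 19053 and then 16220 and 18206 (-0.13 ± 0.43, adjusted p = 0.918). Of the 11 haem genes tested (median -0.29, all genes 0.0014), Alad and Ppox fell under all 3 scalings, and Urod was among those that fell under trimmed-mean scaling.

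Of 21 membrane genes 4 fell under all 3 scalings (median -0.53), namely Rhd, Kel, Cd47 and Slc2a1. Rhd, the Rh blood group gene, was at 520 and 641 and then 253 and 225, and Kel at 158 and 177 and then 59.2 and 83.6. Of 20 terminal maturation genes (median -0.13), Isg20 rose, and Trim10 and Ypel4 fell. Trim10 was at 996 and 1324 and then 494 and 595 (-1.15 ± 0.28, adjusted p = 0.00135, edgeR), and Ypel4 at 26.4 and 73.0 and then 2.28 and 3.22. Xpo7, a nuclear exporter, fell under trimmed-mean scaling but not under all 3.

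Other lists showed few calls. Of 11 regulators (median -0.18) Foxo3 fell, and so did the replication gene Rrm2, each under trimmed-mean scaling only. Of 11 globin handling genes (median -0.54) Car2 fell with trimmed-mean but not with median-of-ratios scaling, and Car2, Prdx2 and Gpx4 fell with non-globin totals only. By edgeR with trimmed-mean scaling 0 of 8 iron genes (median -0.28) and 0 of 14 mitotic genes (median 0.23) passed, with 1 and 2 of them at an unadjusted p below 0.05. Mitotic genes that passed the low-count filter only through E12.5, such as Cenpf (15.1 and 0 CPM at E14.5), had few UMIs at these stages. The absence of a call says little for them. With non-globin totals only, the iron storage gene Fth1 fell (log2 change -1.05, adjusted p = 0.000142, edgeR). Lyl1 and the smooth muscle gene did not pass either, with adjusted p of 0.0724 and 0.368. Of 81 ribosomal genes 1 rose (median 0.14). Over all members the list genes called were Isg20, Slc2a1 and Tagln, and 0 of 14 haem genes passed (median -0.37), with 3 at an unadjusted p below 0.05 (edgeR).

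Most genes that rose were ones that other heart barcodes held at higher levels. Of 12 cardiomyocyte genes 10 rose under all 3 scalings (median 1.33), as did 5 of 12 mitochondrial genes (median 0.82) and, of 3 fibroblast genes, Col3a1. With non-globin totals only, 11 cardiomyocyte and 10 mitochondrial genes rose. Postn, a matrix gene of fibroblasts, also rose with trimmed-mean scaling (log2 change 2.03, adjusted p = 0.0485, edgeR) and with median-of-ratios scaling but not with non-globin totals. Over all members 0 of 12 cardiomyocyte genes (median 0.86) and 0 of 13 mitochondrial genes (median 1.21) passed by edgeR, with 5 and 13 at an unadjusted p below 0.05. Ckm, the muscle creatine kinase, was at 117 and 73.0 and then 819 and 678 in definitive barcodes, and at 416 and 424 and then 1822 and 1987 in other barcodes. Sln, an inhibitor of the calcium pump, was at 7.54 and 5.21 and then 150 and 154, against 71.8 and 46.0 and then 297 and 312.

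Of the 90 genes that rose, 85 lay below the level of other barcodes in all 4 libraries, and 78 of these 85 were also higher at E16.5 in the other barcodes, without overlap between stages. That held for 287 of the 905 tested genes that lay below other barcodes (31.7%) and for 420 of all 1535 (27.4%). Of all 1535 genes tested, 905 lay below other barcodes in all 4 libraries and 465 above. Only Isg20, AI662270, Lars2 and Gm42418 rose and lay above other barcodes in all 4. Lars2, a mitochondrial synthetase, was at 33.9 and 26.1 and then 63.7 and 174, and Gm42418, which overlaps ribosomal RNA repeats, at 460 and 563 and then 1072 and 1826. Of the 77 genes that fell, 59 lay above other barcodes in all 4 libraries. Of these 59, 36 were also lower at E16.5 in the other barcodes, without overlap between stages. That held for 276 of the 465 tested genes that lay above other barcodes and for 882 of all 1535. The cardiomyocyte sum rose too, from 0.792% and 0.600% to 1.92% and 1.43% of non-globin UMIs, and its part in these changes was not tested.

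Among the largest falls by the named rule at 80% globin and over, Gmpr, which recycles guanine nucleotides, went from 490 and 427 to 84.2 and 119 (log2 change -2.26 ± 0.32, edgeR), Cldn13, a claudin of erythroid cells, from 75.4 and 88.6 to 22.8 and 9.65, and Tmcc2 from 283 and 719 to 146 and 64.3. Hsd3b6 went from 215 and 271 to 13.7 and 109, a wider spread at E16.5 than at E14.5. At E14.5 it stood at 3495 and 3378 in primitive barcodes, and the part of free RNA from those cells in its level was not tested. Gss, Akap13, D1Ertd622e and Lgmn also fell. Over all members the named genes were Nrk, Cox8b, Isg20, Col6a2, Ptgds, Ckm and AI662270 toward E16.5 and Tagln and Slc2a1 toward E14.5.

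**Figure D5:**
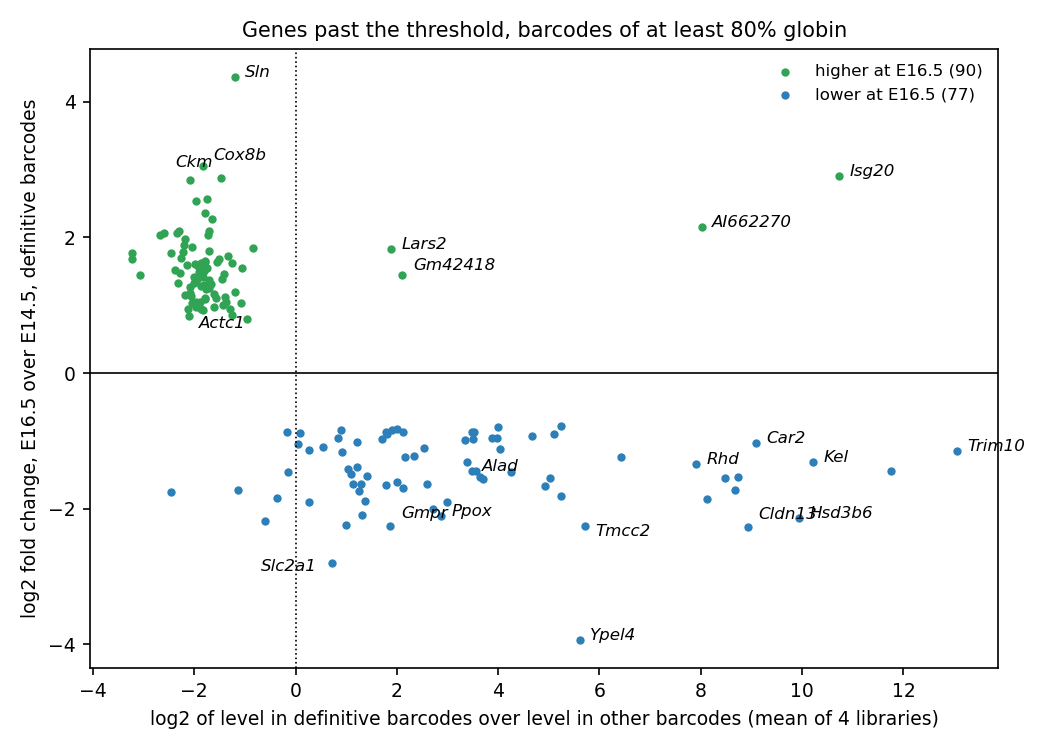
Genes called between E16.5 and E14.5 in definitive barcodes of at least 80% globin, with the log2 fold change (y axis) against the log2 ratio of definitive to other barcodes (x axis, mean of 4 libraries). Most of the 90 genes that rose lie left of the dotted line, where other heart cells hold more, and Isg20 and AI662270 stand apart at the upper right.

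The E12.5 hearts gave only 2 and 6 definitive barcodes, so the step from E12.5 to E14.5 rests on few cells. In replicate 1 they held 33753 UMIs with 84.8% globin and 38312 UMIs with 43.0% globin, the latter with 2.94% of its non-globin UMIs from cardiomyocyte genes. In replicate 2 they held 6267 to 43146 UMIs with 69.7% to 89.2% globin. At 80% globin and over, 1 barcode remained in replicate 1 and 5 in replicate 2, so replicate 1 is 1 cell there. For this step, p-values at 80% globin cannot separate the spread between libraries from that between cells. The test called 82 of 4711 genes over all members (1.74%), 67 higher at E14.5 (1.42%) and 15 lower (0.318%), and 286 of 1535 at 80% globin and over (18.6%), 205 higher (13.4%) and 81 lower (5.28%). The scaling decided the split: with median-of-ratios scaling it was 166 higher and 86 lower, and with non-globin totals only 52 and 185. The median of all genes was 0.48, 0.36 and -0.61 under the 3 scalings. At 80% globin and over, genes are therefore named only where the call held under all of them, which was so for 52 genes that rose and 81 that fell. Genes named over all members were called with trimmed-mean scaling and were not checked under all 3.

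Haem synthesis again split, in that Alas2 and Fech rose while Alad and Cpox were among the genes that fell, of 11 tested. The log2 change with trimmed-mean scaling was 2.85 ± 0.50 (adjusted p = 1.5e-06, edgeR) for Alas2, 2.36 ± 0.44 (adjusted p = 8.04e-06) for Fech and -3.12 ± 0.49 (adjusted p = 5.25e-08) for Cpox. With non-globin totals only, the scale of the levels in CPM, these changes were 1.71, 1.20 and -4.24. With the levels given above, the stages did not overlap for these genes. Over all members the same direction was called for Alas2 (2.37 ± 0.42, adjusted p = 0.0145), Fech and Cpox (-3.60 ± 0.60, adjusted p = 0.0101).

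Part of the regulators and of the mitotic genes fell. Gata1, Klf1, Tal1, Hemgn and E2f4 fell of 11 regulators (median -1.68 with trimmed-mean scaling and -2.79 with non-globin totals only), and Lyl1 with them. Over all members Klf1 and Hemgn fell of 15 regulators and Cenpf of 17 mitotic genes. Hemgn, a target of GATA1, was at 3116 and 1398 at E12.5 and 56.6 and 120 at E14.5 (log2 change -3.39 ± 0.47, adjusted p = 2.35e-09, edgeR, and -4.55 with non-globin totals only). Of 14 mitotic genes 9 fell (median -2.43, and -3.55 with non-globin totals only), namely Mki67, Cenpf, Cenpe, Cenpa, Birc5, Tpx2, Hmgb2, Cdca8 and Cdca3, while the replication gene tested did not pass under all 3 scalings. Cenpf, a kinetochore gene, was at 1363 and 388 and then 15.1 and 0. In the E12.5 libraries at the higher globin limit, 1 UMI already stood for 195 and 77.6 CPM. Genes as low later as Cenpf, Gata1 and Lyl1 could pass the low-count filter only through E12.5. The test could show such genes only as falling, so counts of falls and list medians do not by themselves give the direction of these lists. How many of the genes named this covers was not tested.

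Part of the terminal maturation genes rose. Bnip3l, Gabarapl2, Ube2l6, Ube2h, Ubb and Riok3 were among those that rose and Btg2 fell, of 20 maturation genes (median 1.68, or 1.19 with genes at 0 in a stage at their bound, and 0.58 with non-globin totals only). Ube2l6 was at 4480 and 2640 at E12.5 and 6705 and 6853 at E14.5 (log2 change 2.19 ± 0.45, adjusted p = 4.28e-05, edgeR, and 1.04 with non-globin totals only). Bpgm, which makes the bisphosphoglycerate that lowers the oxygen affinity of haemoglobin, went from 584 and 1631 to 5306 and 5821 (3.21 ± 0.49, adjusted p = 2.26e-08, and 2.1 with non-globin totals only) and was the 1 globin handling gene of 11 that rose (median 0.80, and -0.36 with non-globin totals only). Ube2h was at 0 in both E12.5 libraries, and with 3 counts over that group as the floor it was at least 1.51-fold higher at E14.5.

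The other lists were mixed. Of 21 membrane genes Epb41 rose and Gypc, Rhd, Cd47, Icam4 and Slc2a1 fell (median -1.60, and -2.75 with non-globin totals only), and of 8 iron genes Ftl1 and Isca1 rose (median 1.23, and 0.14 with non-globin totals only). Membrane genes low in the later libraries could likewise pass the low-count filter only through E12.5, so the same limit applies to that list. Ribosomal genes rose for 12 of 81 and mitochondrial genes for 4 of 12, while Tnni3 rose of 12 cardiomyocyte genes and the 3 fibroblast genes had adjusted p of at least 0.627 (edgeR). Over all members, with trimmed-mean scaling, Epb41 rose and only Cd47 fell of 26 membrane genes. There Myh7, Myl2 and Myl3 rose of 12 cardiomyocyte genes, and Dcn of 6 fibroblast genes. Ftl1 was at 27854 and 36183 (E12.5), 93526 and 103307 (E14.5), 61648 and 69803 (E16.5) and 40662 (P3).

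P3 has 1 matrix, so no test against E16.5 was made and values are given with exact Poisson intervals, which cover counting error only. At 80% globin and over Alas2 was at 26458 CPM (25648 to 27287), with 30789 under barcode suffix 1 and 21368 under suffix 2, against 16220 and 18206 at E16.5. Slc4a1 was at 603 against 394 and 457, and Bnip3l at 5822 against 5106 and 6010. Klf1 had no UMI in 152696 non-globin UMIs.

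A few genes stood out at P3. Isg15, a ubiquitin-like protein induced by interferon, was at 1277 (1104 to 1469; 195 UMIs in 44 of 245 barcodes) against 11.4 and 35.4 at E16.5 and 5.63 in other P3 barcodes. The antiviral gene Rsad2 was at 1637 (1441 to 1853; 250 UMIs in 74 barcodes) against 25.03 and 41.8, and 4.86 in other P3 barcodes. Isg20 was at 2705 (2450 to 2979). The parts of P3 differed: Isg15 was at 2158 under suffix 1 and 242 under suffix 2, Rsad2 at 2364 and 783, and Isg20 at 3382 and 1909.

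Further genes induced by interferon rested on few UMIs. Irf7, the first of the named genes by ratio, was at 85.1 (13 UMIs in 9 barcodes) against 2.28 and 0 at E16.5 and 4.07 in other P3 barcodes. Of 6 more such genes, chosen after values were seen, Ifit1 was at 13.1 (2 UMIs) against 0.799 in other P3 barcodes, and Oasl2 at 32.7 (5 UMIs) against 2.37. Ifit3 and Usp18 were at 6.55 (1 UMI each) against 1.15 and 0.845. Bst2, at 19.6 (3 UMIs), and Ifi27l2a, at 52.4 (8 UMIs), lay below the 43.8 and 72.8 of other P3 barcodes. Eln, the elastin gene, was at 367, but at 36.4 under suffix 1 and 755 under suffix 2, and at 480 in other P3 barcodes. Other named genes higher at P3, Ctgf, Fkbp10, Aspn, Tfpi and Rgs5, had 8 to 14 UMIs each.

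The genes lowest at P3 relative to E16.5 included Pepd, a dipeptidase, at 19.6 against 348 and 260, Cdr2 at 138 against 846 and 1235, Ube2s, which extends ubiquitin chains in mitosis, at 308 against 1798 and 1611, and Smim1, the gene of the Vel blood group, at 19.6 against 166 and 203. Serf1, Bex4 and Ldlrad4 had no UMI there, and Tcf7l2, Ell2 and Vegfb completed the named genes. Over all members the P3 ratios were led by Sox18, Ly6a and Fabp4, genes of endothelial cells, and Hmox1 was at 247 over all members against 32.7 at 80% globin and over. The endothelial list held 0.193% of non-globin UMIs over all P3 members and 0.0275% at 80% globin and over, against 0.0429% in other P3 barcodes.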

How the data were processed

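Single-cell 3′ libraries (10x Genomics, v2 protocol per the labels) were made from whole mouse hearts digested with trypsin per the labels, while the study's methods name collagenase II and the v3 kit. The authors deposited matrices of UMI counts per gene and barcode, unnormalized, for 27998 genes. The submitters' processing notes name Cell Ranger 2.1.1, Seurat 3.1.1 and mm10, and the matrix headers name version 3.1.0 (3.0.0 for P3). E8.5 replicate 1 was not analysed here. No column came from another series (0). UMIs are counted once per molecule, and depth per library is given above.

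Counts of member barcodes were summed for each library, and all genes except the 7 globins were tested with edgeR 4.0.16 (limma 3.58.1, R 4.3.3), with the low-count filter filterByExpr and trimmed-mean (TMM) scaling on the non-globin UMIs. The 3 embryonic stages shared 1 fit, and definitive and primitive barcodes at E14.5 were compared with the library as a block. Tests passed at a Benjamini-Hochberg adjusted p below 0.05 over all genes tested. Tables were handled with Python 3.11.15, numpy 2.4.6, scipy 1.17.1, pandas 2.3.3 and matplotlib 3.10.9. Levels are UMIs per 1000000 non-globin UMIs (CPM). The test was tried on simulated counts first.

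Named genes were the 10 largest rises and 10 largest falls past the threshold with a level of at least 50 in the higher group and no overlap between groups, for P3 the 10 highest and 10 lowest ratios to E16.5, the 10 highest mean levels and the 10 largest ratios to other barcodes. Some genes that these rules or lists hold are not reported here. Members and gene lists (haem synthesis, iron, membrane, regulators, progenitor genes, globin handling and oxidation, terminal maturation, replication, mitosis, ribosomal and mitochondrial genes, and markers of cardiomyocytes, endothelial, fibroblast, epicardial and smooth muscle cells, macrophages, platelets and neutrophils) were chosen with earlier results of these data known. Shares of barcodes with a UMI were also compared as the expected share at 200 non-globin UMIs drawn from each barcode without replacement, computed exactly (500 barcodes of under 5% globin, chosen at random, stood for each library). The alternatives covered scaling, filters, DESeq2 1.42.0, globin limits of 50% and 80%, at least 3000 UMIs, markers of other cells under 1%, and libraries left out.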

Additional observations from a re-analysis of the deposited data

How the results depend on the processing

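The counts of called genes depended on the processing. Over all members the values were 82 for E14.5 against E12.5, 11 for E16.5 against E14.5 and 281 for definitive against primitive barcodes, and they are given here in that order. Median-of-ratios scaling gave 37, 7 and 521, DESeq2 244, 46 and 203, no low-count filter 358, 108 and 539, and globins kept in the library sizes 31, 10 and 494. A globin share of at least 50% gave 214, 46 and 704, at least 3000 UMIs 76, 12 and 306, barcodes with markers of other cells under 1% 112, 52 and 712, and barcodes with adult or embryonic beta globin at least 10 times the other 77, 11 and 333. The following were chosen after seeing the data. A globin share of at least 80% gave 286, 167 and 807, with median-of-ratios scaling as well 252, 157 and 766, and with non-globin totals only 237, 171 and 837. E12.5 left out of the fit gave 120 for E16.5 against E14.5, and 191 at 80% globin. The cause was not tested.

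Leaving out 1 library gave 94 to 356 calls for E14.5 against E12.5, with 331 and 356 without E12.5 replicate 1 and 2 and 177 without E14.5 replicate 2. It gave 11 to 130 for E16.5 against E14.5, with 129 and 130 without E12.5 replicate 1 and 2, 92 and 52 without E14.5 replicate 1 and 2 and 22 without E16.5 replicate 2. Fewer libraries also changed which genes passed the filter. No such fit was possible for definitive against primitive barcodes, since leaving out a library leaves no residual degrees of freedom. With the replicate block, the stage comparisons gave 199 and 56 calls, and without it (no replicate block) definitive against primitive gave 428. Replicate numbers across stages were not a pairing by the labels, and the correlation of same-numbered deviations over 1889 genes was 0.25 between E12.5 and E14.5, -0.04 between E12.5 and E16.5 and -0.19 between E14.5 and E16.5.

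Definitive shares at E14.5 replicate 2, E16.5 replicates 1 and 2 were 4.48%, 9.97% and 9.21% with at least 3000 UMIs, and at E16.5 and P3 10.3%, 10.0% and 2.29% with at least 80% globin. With markers of other cells under 1%, added for the shares (not for the counts above) after seeing the data, they were 3.28% and 4.00% (E14.5), 1.35% and 2.79% (E16.5) and 0.290% (P3), which turns the order of E14.5 and E16.5, and the cause was not tested. Of the named genes under these alternatives, 654 of the values kept direction and call, 84 kept the direction without the call, and none turned. These genes were chosen by their call over all members of the same libraries, so the counts are no independent support. Alternatives in which a gene was not tested are left out of these counts. At 439459 non-globin UMIs or fewer a library at 80% globin, levels under about 10 CPM rest on few UMIs, and E12.5 with 5134 and 12879 shows only abundant genes.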
